A study of Mus musculus with 12 samples.

Results

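The genes described here encode the nuclear subunits of the mitochondrial respiratory chain and of ATP synthase, with the isoforms and assembly factors that carry the same names. They were taken from the array annotation by symbol: every gene with a probe set of its own whose symbol starts with Nduf followed by a, b, c, s or v, with Uqcr, with Cox and a digit from 4 to 8, or with Atp5, and the 4 genes Sdha, Sdhb, Sdhc and Sdhd. This gave 90 of the 18193 genes with a probe set of their own on the array; the rule itself uses gene symbols and no measured value. Of these, 44 belong by name to complex I, 4 to complex II, 8 to complex III, 17 to complex IV and 17 to complex V, the ATP synthase. The complex I names comprise 36 subunits or isoforms and 8 assembly factors of the Ndufaf series. A gene with several probe sets, as 51 members had, was represented by the brightest. All but 1 member, Cox7b2, passed the filter on low values, so that 89 were tested.

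The study measured sorted epithelial cells of the prostate of C57BL/6 male mice on 12 Affymetrix arrays. Surgery was at 8 weeks of age, by removal of the testes, or the animals stayed intact; cells were taken 4 weeks after castration, from castrated mice and their paired intact animals. Luminal cells were sorted as lineage-negative, EpCAM-positive and CD49f-low, and basal cells as lineage-negative, EpCAM-positive and CD49f-high. Luminal and basal cells of each hormonal state thus formed 4 groups of 3 arrays, and the replicate numbers stand for 3 sets of mice, with the number of animals per set not given in the sources used here. C57BL/6 mice, which made up all groups, carry a shortened form of the protein of Cox7a2l, a factor that joins complexes III and IV into supercomplexes.

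The respiratory chain passes electrons from NADH through complex I, or from succinate through complex II, to ubiquinone, on to cytochrome c through complex III and to oxygen through complex IV. Complexes I, III and IV pump protons across the inner mitochondrial membrane, and ATP synthase uses their return to make ATP. Most subunits are encoded in the nucleus and a few in mitochondrial DNA. The luminal cells of the prostate secrete citrate and depend on androgen, which castration removes, and basal cells underlie them.

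Promoters of 6 members are shown because the results turn on them. Ndufa1, Ndufb7 and Atp5md were the members called lower after castration in both cell types. The share of all genes called lower in both was not counted. Atp5g1, Atp5g2 and Atp5g3 encode the same membrane-ring subunit of ATP synthase but differed in pattern. Each run is the 120 bases before the start that the RefSeq promoter table of build GRCm38.p6 gives for the gene. Where a gene has several transcripts that start need not be its outermost: the Atp5g3 run lies within the annotated gene, and the Atp5g1 run overlaps its end. The runs are chrX:37191239-37191358 on the minus strand (Ndufa1), chr8:83566638-83566757 on the plus strand (Ndufb7), chr19:47090648-47090767 on the minus strand (Atp5md), chr11:96075632-96075751 on the minus strand (Atp5g1), chr15:102671048-102671167 on the minus strand (Atp5g2) and chr2:73911327-73911446 on the minus strand (Atp5g3). Capitals mark a match to 1 of 6 motifs searched on both strands: the NRF1 motif GCATGCGC, the GABP motif CCGGAAG, the YY1 motif AAGATGG, the ERR motif AAGGTCA, the Sp1 motif GGGGCGG and the androgen receptor motif AGAACA.
Ndufa1: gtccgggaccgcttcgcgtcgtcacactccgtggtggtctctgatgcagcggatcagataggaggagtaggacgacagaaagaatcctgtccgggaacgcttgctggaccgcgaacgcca
Ndufb7: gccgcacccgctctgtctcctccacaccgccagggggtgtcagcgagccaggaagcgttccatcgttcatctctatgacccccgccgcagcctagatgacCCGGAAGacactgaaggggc
Atp5md: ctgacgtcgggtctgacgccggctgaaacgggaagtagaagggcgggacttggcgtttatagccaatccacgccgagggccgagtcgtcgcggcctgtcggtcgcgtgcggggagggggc
Atp5g1: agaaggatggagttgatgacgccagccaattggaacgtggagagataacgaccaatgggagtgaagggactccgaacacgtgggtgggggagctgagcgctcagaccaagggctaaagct
Atp5g2: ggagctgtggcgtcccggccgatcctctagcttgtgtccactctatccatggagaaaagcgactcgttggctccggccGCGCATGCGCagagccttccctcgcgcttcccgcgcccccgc
Atp5g3: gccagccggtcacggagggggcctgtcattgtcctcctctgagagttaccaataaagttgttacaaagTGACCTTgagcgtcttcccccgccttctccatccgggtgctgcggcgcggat

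In these stretches the Ndufb7 promoter held the GABP letters, that of Atp5g2 held the NRF1 motif on both strands at overlapping positions, and that of Atp5g3 held the ERR motif on the minus strand. None of the 6 motifs was found in the stretches shown for Ndufa1, Atp5md and Atp5g1, while the longer window of Atp5md counted next held the GABP and androgen receptor letters and that of Atp5g2 also the Sp1 letters. Over windows from 250 bases before to 50 after the start, which 74 of the 90 members matched, the NRF1 motif was in 11 members (14.9%), against 2.8% of all 27025 windows in the table. The GABP motif was in 18 members (24.3%, against 9.12% of all windows), the YY1 motif in 10 (13.5% against 6.48%), the ERR motif in 8 (10.8% against 4.66%) and the Sp1 motif in 23 (31.1% against 23.4%). The androgen receptor motif was in 10 members (13.5%), against 19% of all windows. These are matches of letters, and binding was not measured.

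Values are the deposited MAS5 signals, a linear brightness per probe set whose mean after trimming 2% at each end was 500.0 on every array, and tests were run on log2(signal + 16). A difference is given on that log2 scale with its standard error from a limma fit over all 12 arrays, and passed the test at a Benjamini-Hochberg adjusted p under 0.05 over all 14645 genes tested. The arrays differed in their median: over the genes tested, the median log2 value was 8.14 to 8.31 in intact luminal, 8.18 to 8.26 in castrated luminal, 7.91 to 8.07 in intact basal and 7.57 to 7.89 in castrated basal cells. The ratio of 3' to 5' control probe sets was 4.18 to 8.70 for Gapdh over all arrays. For Actb it was 0.781 to 0.9502 in intact luminal and 1.08 to 1.11 in castrated luminal cells, without overlap, and 0.938 to 0.986 in intact basal and 0.943 to 1.08 in castrated basal cells. Of 8 luminal markers, 7 were higher in luminal cells in both hormonal states, and all 10 basal markers were higher in basal cells in both. The summed signal of 10 fibroblast markers was 9822 to 17953 in intact luminal, 930.1 to 1296 in castrated luminal, 41150.4 to 57543 in intact basal and 24566 to 31103 in castrated basal cells. The summed signal of 9 leukocyte markers was 10191 to 12753 in intact luminal and 438 to 915 in castrated luminal cells, and 967 to 2435 in basal cells. A sum follows its brightest markers. Of these 9, 1 was called higher and 0 lower in luminal than in basal cells of intact mice, with a median difference of 0.02. The summed signal of 6 seminal vesicle markers was 238651 to 394826 in intact luminal, 21239 to 40350.4 in castrated luminal, 27368 to 42866 in intact basal and 3576 to 5331 in castrated basal cells. The part of these shifts in the results below was not tested, and in sorted bulk samples fewer cells of a type and less RNA per cell cannot be told apart.

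On each of the 12 arrays 77 of the 90 exceeded the 40th percentile of signals. Only Cox4i2, Cox7b2, Cox8b and Ndufb4 lay under it on all 3 arrays of at least 1 group. Relative to its own mean over the arrays, the median member stood at 0.08 to 0.38 log2 units in intact luminal cells and at 0.06 to 0.23 in castrated luminal cells. It stood at -0.06 to 0.15 in intact basal cells and at -0.36 to -0.21 in castrated basal cells. The castrated basal arrays were thus the lowest, below every other array. After each array's median over all genes was subtracted, castrated basal replicate 3 moved to 0.28 and castrated basal replicates 1 and 2 stayed at -0.18 and -0.11, so the order of the groups depends in part on how the arrays are scaled.

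**Figure D1:**
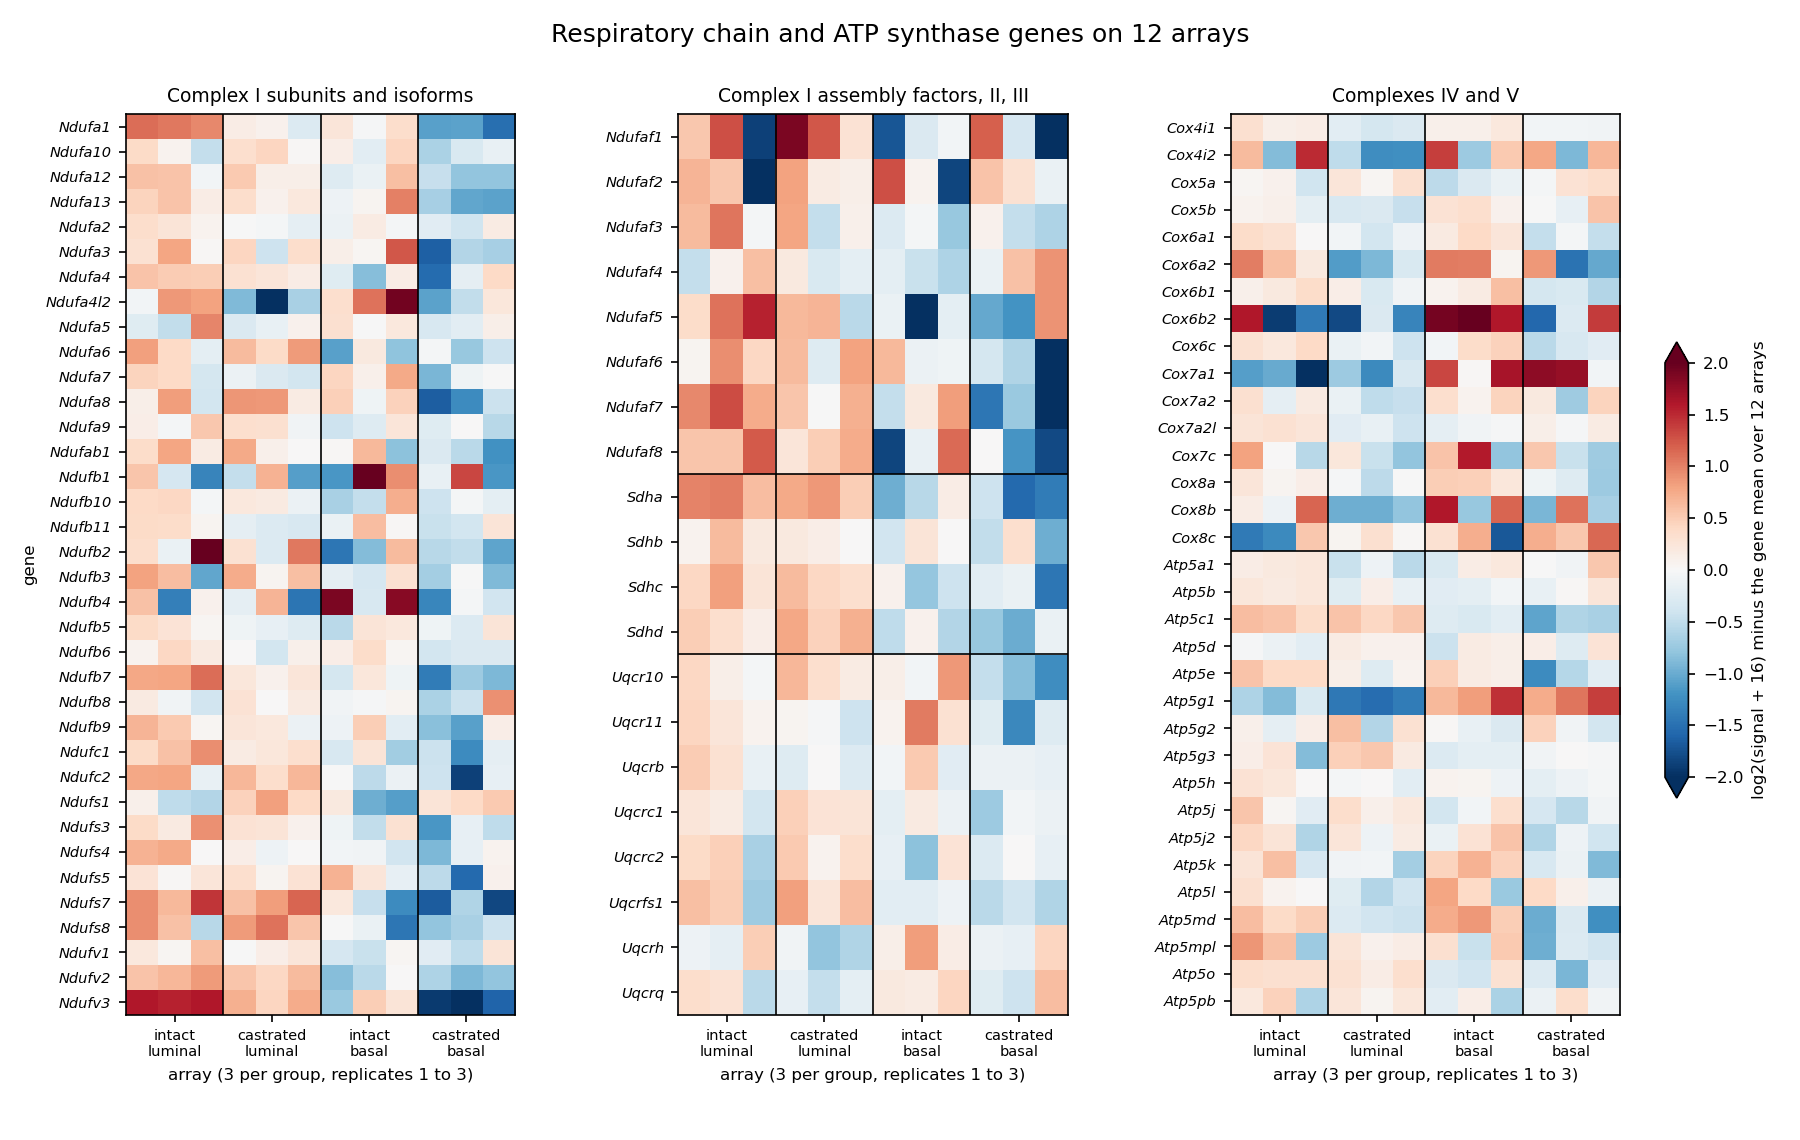
Heat map of the 89 tested members (rows, by complex) on the 12 arrays (columns, 3 per group); colour is log2(signal + 16) minus the gene's mean over the 12 arrays, cut at -2 and 2. Ndufa1, Ndufv3 and Sdha are highest in intact luminal cells, Atp5g1 and Cox7a1 are highest in basal cells, and rows of dim genes such as Cox6b2 and Ndufb4 vary between replicates of 1 group.

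In luminal cells 4 members were lower after castration and none higher by the test. Ndufa1, Ndufb7, Cox7a2l and Atp5md fell, which is 4 of 89 members lower and 0 higher. Over all genes 2.96% were called lower and 2.90% higher, so a share of members near the background was called. The median member differed by -0.25 log2 units, against -0.09 for all genes; 63 members had a value below 0 and 26 above. By complex, the median was -0.17 for complex I, -0.10 for complex II, -0.05 for complex III, -0.45 for complex IV and -0.08 for complex V. With quantile normalization these medians were -0.22, -0.09, -0.10, -0.24 and 0.05, so the sign for complex V turned.

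Ndufa1, a small accessory subunit of the membrane arm of complex I, is encoded on chromosome X. Its signal was 18917, 17995 and 16825 in intact luminal cells, 9633, 9247 and 7157 in castrated luminal cells, 10282, 8539 and 11089 in intact basal cells, and 4093, 4106 and 3049 in castrated basal cells. Intact luminal arrays were the highest and castrated basal arrays the lowest, and castrated and intact arrays did not overlap in either cell type. The difference was -1.05 ± 0.19 (adjusted p = 0.00251) in luminal cells and -1.41 ± 0.19 (adjusted p = 0.000718) in basal cells. Both calls held with every single array left out, and the luminal call was lost without the intensity trend (adjusted p = 0.0712).

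Ndufb7, an accessory subunit of complex I that faces the intermembrane space, had a signal of 33392, 33727 and 42436 in intact luminal cells, 22891, 20617 and 23019 in castrated luminal cells, 15244, 22716 and 18319 in intact basal cells, and 7409, 11777 and 10437 in castrated basal cells. Castrated arrays lay below intact arrays of the same cell type without overlap. Its difference was -0.71 ± 0.18 (adjusted p = 0.0277) in luminal cells and -0.93 ± 0.18 (adjusted p = 0.0135) in basal cells. The luminal call was lost in 5 of the 12 fits that left out 1 array. It was also lost with quantile normalization, median centring, no intensity trend, the mean of its probe sets and without replicate 3 of every group. The basal call was lost in 1 of the 12 fits. Median centring, no intensity trend, the mean of its probe sets and a fit of only the 2 groups lost it too. The second, dimmer probe set of the gene gave -0.27 (adjusted p = 0.763) in luminal and -0.18 (adjusted p = 0.863) in basal cells. The fall of Ndufb7 thus rests on 1 of its 2 probe sets.

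Atp5md, a small membrane subunit of ATP synthase also known as DAPIT, had a signal of 9314, 7919 and 8494 in intact luminal cells, 5002, 4633 and 4503 in castrated luminal cells, 10126, 11093 and 8532 in intact basal cells, and 3053, 4955 and 2587 in castrated basal cells. Again the castrated and intact arrays did not overlap in either cell type. It fell in both, with a difference of -0.86 ± 0.23 (adjusted p = 0.0336) in luminal cells and -1.53 ± 0.23 (adjusted p = 0.00187) in basal cells. The luminal call was lost without any one of the 6 luminal arrays, while the basal call held with every single array left out. No intensity trend and leaving out replicate 3 of every group also lost the luminal call.

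Cox7a2l, the supercomplex factor, had a signal of 20819.8, 21368 and 20576 in intact luminal cells, 14911, 15601 and 13004 in castrated luminal cells, 15379.7, 16545 and 17153 in intact basal cells, and 18751, 17117 and 19509 in castrated basal cells. The castrated luminal arrays lay below the intact luminal arrays, with intact basal replicate 1 among them, and the basal groups overlapped. The difference was -0.53 ± 0.13 (adjusted p = 0.0241) in luminal cells and 0.17 ± 0.13 (adjusted p = 0.539) in basal cells. Its luminal call was lost with quantile normalization, with median centring, without the intensity trend, with the mean of its probe sets, without replicate 3 of every group and in 4 of the 12 fits that left out 1 array.

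The next members by p in luminal cells missed the threshold. Atp5g1 is described below with the other c subunit genes. Cox4i1, the common form of a regulatory subunit of complex IV, had a signal of 13923, 12077 and 12312 in intact luminal cells, 9570.0, 8735 and 9121 in castrated luminal cells, 11933, 11979 and 12840.2 in intact basal cells, and 10752, 10666 and 10622 in castrated basal cells. Castrated luminal arrays lay below intact luminal arrays, and the difference was -0.48 ± 0.15 (adjusted p = 0.0671). Atp5a1, the alpha subunit of the catalytic head of ATP synthase, had a signal of 35927, 37216 and 37759 in intact luminal cells, 23782, 30239 and 22167 in castrated luminal cells, 26172, 35675 and 37379 in intact basal cells, and 32320.0, 30709 and 46914 in castrated basal cells. Castrated luminal arrays were again lower without overlap, with a difference of -0.55 ± 0.17 (adjusted p = 0.0694), against 0.14 ± 0.17 (adjusted p = 0.731) in basal cells. Its second probe set gave -0.58 (adjusted p = 0.02) in luminal cells where every probe set was tested singly. Leaving out any one of the 6 luminal arrays left 1 or 2 of the 4 luminal calls in place, Ndufa1 each time, and leaving out replicate 3 of every group left 1. Under the replicate block 5 members were called lower, Atp5g1 in addition. Markers moved in this comparison too: all 6 seminal vesicle markers, 7 of 10 fibroblast markers, 3 of 8 luminal markers and 1 of 9 leukocyte markers fell, and the Actb ratio given above differed between the groups. Their part in the result was not tested.

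In basal cells 9 members fell after castration and none rose by the test: Ndufa1, Atp5md, Ndufv3, Ndufa13, Ndufb7, Ndufa3, Atp5k, Cox6c and Cox6b1. This is 10.1% of the 89 members, where 1.50% of all genes were called lower and 1.12% higher. The median standard error was 0.31 for members and 0.59 for all genes, here and in the other pairwise comparisons. A difference of a given size therefore passed more readily in members, and the part of this in the shares was not tested. Complex I held 5 of the 9, complex IV 2 and complex V 2. The median member differed by -0.33 log2 units, against -0.11 for all genes, and 69 members had a value below 0. The median was -0.47 for complex I, assembly factors included, -0.31 for complex II, -0.30 for complex III, -0.46 for complex IV and -0.12 for complex V. With quantile normalization they were -0.48, -0.33, -0.30, -0.38 and -0.17, and with median centring that of complex V was 0.12.

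Ndufv3, an accessory subunit of the NADH-binding part of complex I, had a signal of 10156, 9725 and 10228 in intact luminal cells, 5481, 4537 and 5628 in castrated luminal cells, 1999.7, 4737 and 4026 in intact basal cells, and 881, 368 and 1096 in castrated basal cells. Castrated basal arrays were far below all others, and intact luminal arrays were the highest. Its basal difference was -2.22 ± 0.36 (adjusted p = 0.00372), the largest fall among the called members, and its luminal difference was -0.95 ± 0.36 (adjusted p = 0.148). Ndufa13, also known as GRIM-19, is an accessory complex I subunit with a signal of 13858, 15179 and 11334 in intact luminal cells, 13020.3, 10791 and 11760.4 in castrated luminal cells, 9487, 10574 and 20554 in intact basal cells, and 6451, 4970.4 and 4839.5 in castrated basal cells. Castrated basal arrays were the lowest and intact basal replicate 3 the highest of all arrays. The difference was -1.24 ± 0.24 (adjusted p = 0.0133) in basal cells and -0.18 ± 0.24 (adjusted p = 0.751) in luminal cells.

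Cox6c, a small accessory subunit of complex IV, had a signal of 25945, 24384 and 27752 in intact luminal cells, 19308, 20290.3 and 15874 in castrated luminal cells, 20189, 27089 and 29054 in intact basal cells, and 14433, 16901 and 18048 in castrated basal cells. Castrated basal arrays lay below intact basal arrays, and the difference was -0.62 ± 0.16 (adjusted p = 0.0465), against -0.50 ± 0.16 (adjusted p = 0.0751) in luminal cells. Cox6b1, the common form of the subunit on the intermembrane side of complex IV, had a signal of 13349.7, 14324 and 16073 in intact luminal cells, 13687, 10063 and 11851 in castrated luminal cells, 13072, 13956 and 18966 in intact basal cells, and 9727, 10035 and 8279 in castrated basal cells. Here too the basal groups did not overlap, with a difference of -0.70 ± 0.18 (adjusted p = 0.0467). Atp5k, the e subunit that helps ATP synthase form dimers, had a signal of 13698, 17269 and 9087 in intact luminal cells, 10848, 10979 and 7133 in castrated luminal cells, 15500.3, 18427 and 15635 in intact basal cells, and 9179, 10573 and 6169 in castrated basal cells. The basal groups did not overlap, and the difference was -0.96 ± 0.25 (adjusted p = 0.0465), while 2 other probe sets of Atp5k gave 0.30 (adjusted p = 0.756) and 0.46 (adjusted p = 0.678). The direction for Atp5k therefore depended on the probe set. Ndufa3, an accessory complex I subunit, differed by -1.43 ± 0.36 (adjusted p = 0.0447).

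The last 4 of these calls were the least stable. Those of Cox6c, Cox6b1 and Atp5k were lost in 10, and that of Ndufa3 in 11, of the 12 fits that left out 1 array. The basal count was 4 without intact basal replicate 2 or castrated basal replicate 2. It was 5 without intact luminal replicate 1, castrated luminal replicates 1, 2 or 3, intact basal replicate 3 or castrated basal replicate 1. Under the replicate block 6 members were called lower, without Cox6b1, Cox6c and Ndufa3, and with median centring 4. In this comparison 4 of 10 fibroblast, 3 of 6 seminal vesicle, 3 of 8 luminal and 1 of 2 erythroid markers fell, and 1 luminal and 1 of 9 leukocyte markers rose. Their part in the result was not tested.

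Members just above the threshold in basal cells were Ndufa8 of complex I, at -1.39 ± 0.39 (adjusted p = 0.065), Atp5e, Uqcr10 and Cox6a1. Atp5e, the epsilon subunit of the central stalk of ATP synthase, had a signal of 5736, 5116 and 5094 in intact luminal cells, 4203, 3241 and 4060.4 in castrated luminal cells, 5427, 4332 and 4183 in intact basal cells, and 1608, 2611 and 3352 in castrated basal cells. The castrated basal arrays were lower without overlap, with a difference of -0.93 ± 0.26 (adjusted p = 0.0674). Cox6a1, the common form of a complex IV subunit, had a signal of 15585, 14964 and 12198 in intact luminal cells, 11643, 9407 and 11227 in castrated luminal cells, 13706, 15882 and 14322 in intact basal cells, and 8660.1, 11798 and 8690.2 in castrated basal cells, and its basal groups did not overlap either. Its difference was -0.60 ± 0.17 (adjusted p = 0.0699). Uqcr10 and Uqcr11 are small accessory subunits of complex III. The signal of Uqcr10 was 2078, 1689 and 1523 in intact luminal cells, 2467, 1964 and 1748 in castrated luminal cells, 1688, 1501 and 2858 in intact basal cells, and 1117, 858 and 650.2 in castrated basal cells, with a basal difference of -1.16 ± 0.33 (adjusted p = 0.0676) and a luminal difference of 0.22 ± 0.33 (adjusted p = 0.777). That of Uqcr11 was 2548, 2252 and 1984 in intact luminal cells, 1973, 1868 and 1417 in castrated luminal cells, 1994, 3921 and 2348 in intact basal cells, and 1599, 764 and 1579 in castrated basal cells, with -1.07 ± 0.34 (adjusted p = 0.105) in basal cells. For both, castrated basal arrays lay below intact basal arrays without overlap.

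**Figure D2:**
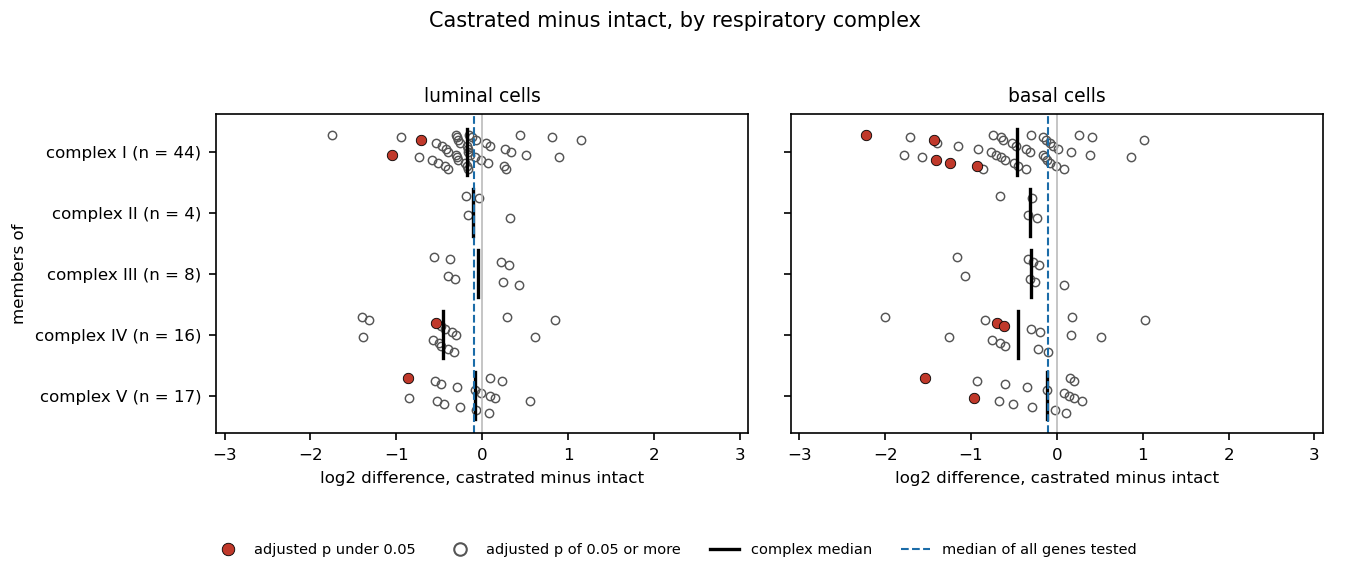
Log2 difference, castrated minus intact, of each tested member in luminal (left) and basal (right) cells, by complex; red points passed the test, black bars are complex medians and the dashed line is the median of all genes tested. All passing members, 4 in luminal and 9 in basal cells, lie left of 0.

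**Figure D3:**
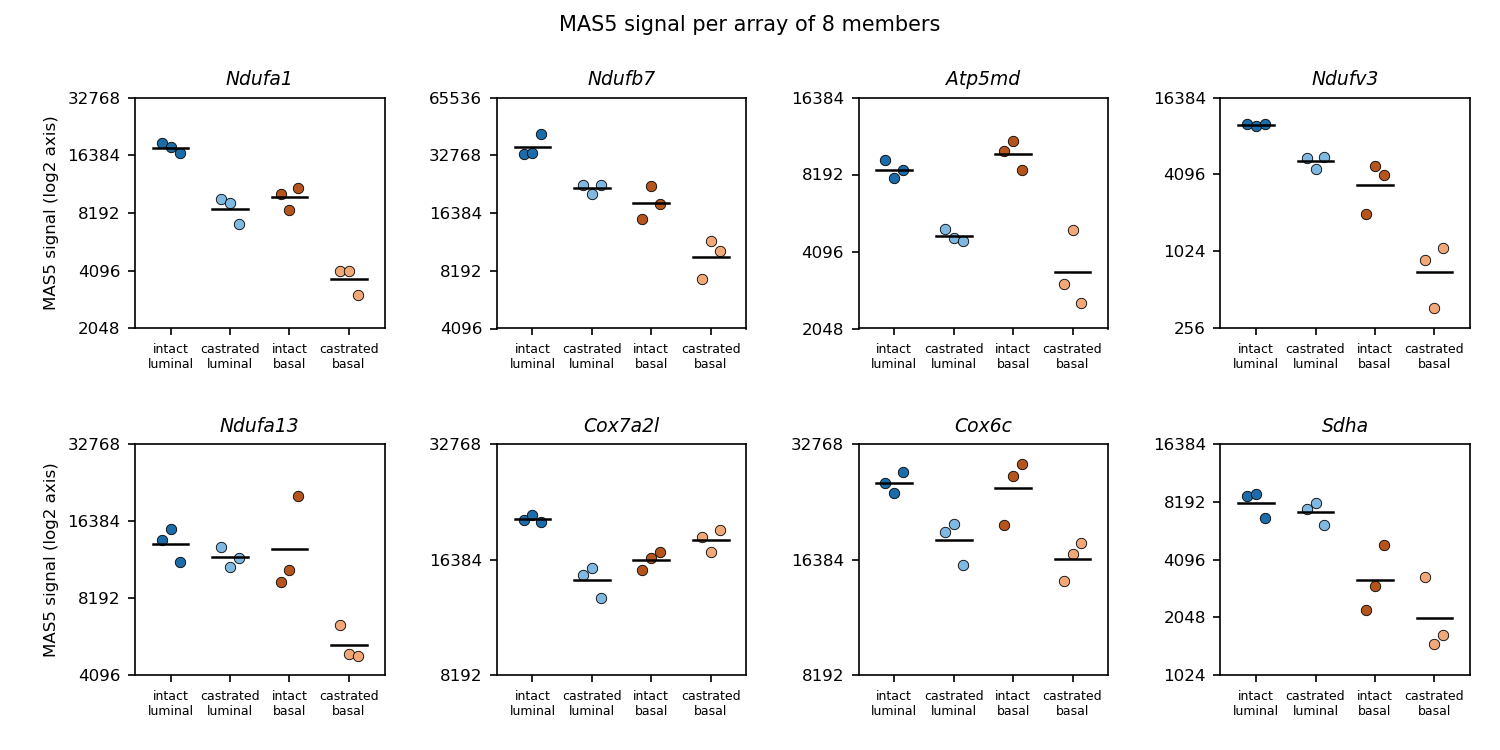
MAS5 signal (log2 axis) of 8 members on each array, 3 points per group with bars at the geometric mean. Ndufa1, Ndufb7 and Atp5md are lower after castration in both cell types, Ndufv3, Ndufa13 and Cox6c passed the test in basal cells, Cox7a2l passed in luminal cells, and Sdha passed in neither.

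Whether castration acted differently in the cell types was tested as an interaction. No member passed, 0 higher and 0 lower in luminal relative to basal cells, where 0.676% and 0.471% of all genes did. At an unadjusted p under 0.05 there were 9 members (10.1%), against 12.7% of all genes, and the limma fit also called 0 under every alternative run for the interaction, which a fit of only 2 groups cannot test. The lowest adjusted p was that of Cox7a2l, with -0.71 ± 0.19 (adjusted p = 0.0882). The difference between the cell types was 1.83 ± 0.55 for Ndufa8 and 1.27 ± 0.51 for Ndufv3, neither of which passed. Members called in 1 cell type alone are therefore not shown to respond differently in the other.

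Most members called between luminal and basal cells were higher in luminal cells. In intact mice 8 members were higher in luminal cells (Ndufa1, Ndufb7, Ndufc1, Ndufs7, Ndufv2, Ndufv3, Sdha and Atp5c1) and 2 lower (Atp5g1 and Cox7a1). Over all genes 11.0% were higher and 8.45% lower, so that 11.2% of members against 19.5% of all genes were called in either direction. In castrated mice 18 members were higher and 3 lower, against 11.2% and 7.22% of all genes, or 23.6% of members against 18.4% in either direction. The higher ones were 13 of complex I, 3 of complex II, 1 of complex III and 1 of complex V, and the lower ones were Cox7a1, Atp5g1 and Atp5a1. The median member stood at 0.17 in intact and 0.43 in castrated mice, against 0.07 and 0.08 for all genes. The 2 comparisons share no arrays but come from the same fit, with a shared spread estimate per gene. In both, 10 members passed, and the share of all genes that passed in both was not counted.

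The median over complex I was 0.37 in intact and 0.77 in castrated mice, and over complex II 0.76 and 1.16. Over complex IV it was -0.14 and -0.29, over complex III -0.04 and 0.47, and over complex V 0.15 and 0.17. Complexes I and II kept a median above 0, and complex IV one below 0, with quantile normalization and with median centring. With quantile normalization the medians in intact and castrated mice were -0.09 and -0.08 for complex IV, and 0.12 and 0.51 for complex V. In castrated mice 2 members of complex IV and 3 of complex V then passed as higher, against 0 and 1 in the main fit. With median centring complex V had a median of -0.08 for intact and -0.28 for castrated animals, that of all members turned to -0.06 and -0.01, and that of all genes stood at -0.16 and -0.36. Centring shifts every gene of an array alike, so relative to all genes the members stood at 0.10 in intact and 0.35 in castrated mice with it as without it, and at 0.16 and 0.38 with quantile normalization. The intact value was -0.0035 without intact luminal replicate 1, 0.025 without intact luminal replicate 2 and 0.196 without intact luminal replicate 3. The split of calls with median centring was 6 higher and 3 lower in intact mice and 9 higher and 7 lower in castrated mice. All 7 lower calls under that scaling in castrated mice came from complexes III, IV and V, and all 9 higher ones from complexes I, II and V. Without castrated luminal replicate 1 there were 11 calls in castrated mice, and without castrated luminal replicate 3 there were 12; leaving out replicate 3 of every group gave 16 in intact mice. Under the replicate block 20 members were called in castrated mice, without Ndufa3.

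Ndufv3, whose arrays are given above, had the largest luminal excess of the called members: 1.57 ± 0.36 (adjusted p = 0.00531) in intact mice and 2.84 ± 0.36 (adjusted p = 3.21e-05) in castrated mice. Ndufa1 stood at 0.85 ± 0.19 (adjusted p = 0.00416) and 1.21 ± 0.19 (adjusted p = 0.00024), and Ndufb7 at 0.97 ± 0.18 (adjusted p = 0.00119) and 1.19 ± 0.18 (adjusted p = 0.000199). The second probe set of Ndufb7 was also higher in luminal cells, at 1.24 (adjusted p = 0.0291) and 1.15 (adjusted p = 0.045). Ndufv2, a core subunit with an iron-sulfur cluster, stood at 1.16 ± 0.26 (adjusted p = 0.0049) in intact and 1.31 ± 0.26 (adjusted p = 0.00198) in castrated mice, and Ndufs7, another, at 1.51 ± 0.40 (adjusted p = 0.013) and 2.22 ± 0.40 (adjusted p = 0.000788). Ndufs1 and Ndufv1, core subunits of the same kind, passed in neither, with 0.17 ± 0.42 and 0.28 ± 0.25 in castrated mice. Ndufs8 passed in castrated mice, with 1.45 ± 0.43 (adjusted p = 0.027), a call that 5 of the 12 fits without 1 array lost. The other complex I members higher in luminal cells of castrated mice were Ndufa3, Ndufa8, Ndufa12, Ndufa13, Ndufc1, Ndufc2 and the assembly factor Ndufaf7, at 0.86 to 2.02. Of the 12 fits without 1 array, 6 lost the call of Ndufa3, 5 that of Ndufa12 and 4 that of Ndufc1. For Ndufc2 and Ndufaf7 it was 3 each. With median centring the calls of Ndufa3, Ndufa12, Ndufa13, Ndufc1 and Ndufc2 were lost. The call of Ndufa8 held under every setting.

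Complex II oxidises succinate and links the chain to the citric acid cycle. Sdha, its flavoprotein subunit, had a signal of 8748, 8958 and 6730.2 in intact luminal cells, 7494, 8037 and 6212 in castrated luminal cells, 2233, 2986 and 4878 in intact basal cells, and 3315, 1492 and 1662 in castrated basal cells. Every luminal array was above every basal array, and the difference was 1.33 ± 0.31 (adjusted p = 0.00615) in intact and 1.83 ± 0.31 (adjusted p = 0.000529) in castrated mice. Sdhd, a membrane anchor, had a signal of 2686, 2396 and 2074 in intact luminal cells, 3272, 2608 and 3115 in castrated luminal cells, 1325, 2013 and 1255 in intact basal cells, and 1116, 944 and 1729.9 in castrated basal cells. Again no luminal array fell within the basal range, with 0.66 ± 0.30 (adjusted p = 0.149) in intact and 1.28 ± 0.30 (adjusted p = 0.00689) in castrated mice. Sdhb, the iron-sulfur subunit, had a signal of 2064, 3074 and 2271 in intact luminal cells, 2266, 2160.0 and 1984 in castrated luminal cells, 1504, 2352 and 1992 in intact basal cells, and 1402, 2483 and 996 in castrated basal cells. Its groups overlapped, with 0.34 ± 0.33 (adjusted p = 0.533) and 0.49 ± 0.33 (adjusted p = 0.346). Sdhc, the other anchor, stood at 0.87 ± 0.32 (adjusted p = 0.0686) and 1.05 ± 0.32 (adjusted p = 0.0293). In castrated mice the Sdhc call was lost in 4 of the 12 fits without 1 array. Median centring lost the calls of both Sdhc and Sdhd there. Castration moved none of the 4 past the threshold in either cell type, with values from -0.66 to 0.33.

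In complex III, Uqcr10 alone passed, with 1.24 ± 0.33 (adjusted p = 0.0138) in castrated mice and -0.15 ± 0.33 (adjusted p = 0.816) in intact mice. Its call was lost in 2 of the 12 fits without 1 array and with median centring. Uqcrfs1, the Rieske iron-sulfur protein, had a signal of 1596, 1484 and 634 in intact luminal cells, 1862, 1246 and 1623 in castrated luminal cells, 901, 906 and 979.5 in intact basal cells, and 717, 800.2 and 686 in castrated basal cells. Intact luminal replicate 3 was the lowest of all arrays, and the difference in castrated mice was 1.07 ± 0.37 (adjusted p = 0.0546), without overlap. Uqcrh, the hinge protein next to cytochrome c1, had a signal of 7123, 6783 and 10735 in intact luminal cells, 7298, 4412 and 5024 in castrated luminal cells, 8309.5, 13673 and 8485 in intact basal cells, and 7083, 6835 and 10305 in castrated basal cells, and Uqcrb, a ubiquinone-binding subunit, 9848, 8572 and 6271 in intact luminal cells, 5799, 6996 and 5725 in castrated luminal cells, 6651, 10018 and 5945 in intact basal cells, and 6378, 6422 and 6217 in castrated basal cells. The groups overlapped for both in each cell-type comparison, with -0.54 ± 0.26 (adjusted p = 0.171) for Uqcrh and -0.04 ± 0.22 (adjusted p = 0.921) for Uqcrb in castrated mice. Castration moved neither past the threshold.

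In ATP synthase, Atp5c1, the gamma subunit that turns within the catalytic head, had a signal of 10875, 10509 and 9081 in intact luminal cells, 10494, 9437 and 10242 in castrated luminal cells, 5907, 5688 and 6066 in intact basal cells, and 3385, 4626 and 4509 in castrated basal cells. All luminal arrays lay above all basal arrays, and the difference was 0.78 ± 0.18 (adjusted p = 0.00617) in intact and 1.28 ± 0.18 (adjusted p = 0.000106) in castrated mice. Both Atp5c1 calls held with every single array left out, and both were lost with the mean of its probe sets. The intact call was also lost with median centring and without the intensity trend. Atp5a1 was called lower in luminal cells of castrated mice, with -0.52 ± 0.17 (adjusted p = 0.0448). That call was lost in 7 of the 12 fits without 1 array and turned to 0.14 (adjusted p = 0.47) with quantile normalization, and the other probe sets of Atp5a1 gave -0.55 (adjusted p = 0.0108) and 0.42 (adjusted p = 0.173).

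**Figure D4:**
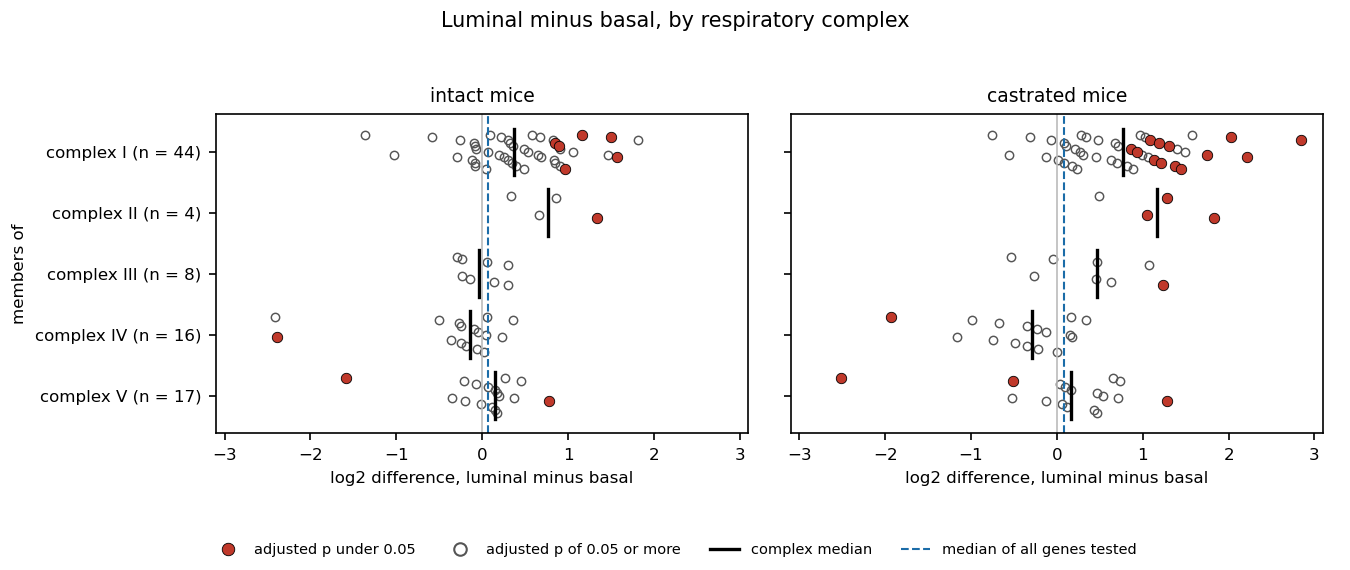
Log2 difference, luminal minus basal, of each tested member in intact (left) and castrated (right) mice, by complex, with symbols for passing members, complex medians and the median of all genes as in the legend. The medians of complexes I and II lie right of 0 and that of complex IV left of 0 in both panels, and 8 members in intact and 18 in castrated mice passed as higher in luminal cells.

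The 3 genes of the ATP synthase c subunit encode the same mature protein behind different import sequences, and they differed in pattern. Atp5g1 had a signal of 3219.9, 2696 and 3979 in intact luminal cells, 1823, 1698 and 1857 in castrated luminal cells, 7736, 8824 and 13669.7 in intact basal cells, and 8248, 10392 and 12856 in castrated basal cells. Each basal array was brighter than each luminal array, and castrated luminal arrays lay below intact luminal arrays. The difference between luminal and basal cells was -1.58 ± 0.25 (adjusted p = 0.000262) in intact and -2.52 ± 0.25 (adjusted p = 2.37e-06) in castrated mice, and that of castration in luminal cells was -0.86 ± 0.25 (adjusted p = 0.0532). Atp5g2 had a signal of 1659, 1355 and 1695 in intact luminal cells, 2354, 1029 and 1902 in castrated luminal cells, 1578, 1386 and 1263 in intact basal cells, and 2142, 1478 and 1195 in castrated basal cells, and the groups overlapped throughout. Atp5g3 had a signal of 6229.9, 6833 and 3102 in intact luminal cells, 7948, 8290.3 and 6451 in castrated luminal cells, 4694, 4966 and 4953 in intact basal cells, and 5433, 5679.8 and 5610.0 in castrated basal cells. Atp5g2 and Atp5g3 passed in none of the 4 comparisons, with luminal minus basal differences of 0.15 ± 0.34 and 0.09 ± 0.34 for Atp5g2 and of 0.06 ± 0.25 and 0.43 ± 0.25 for Atp5g3. A second probe set of Atp5g1, with a mean log2 value of 6.39 against 12.27 for the first, gave 0.39 (adjusted p = 0.809) in intact and -0.62 (adjusted p = 0.687) in castrated mice.

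Complex IV has subunits with tissue-restricted isoforms. Cox7a1, the heart and skeletal muscle form, had a signal of 122, 131 and 55.6 in intact luminal cells, 163, 106 and 222 in castrated luminal cells, 729.7, 284 and 915 in intact basal cells, and 1008, 975 and 269 in castrated basal cells. Basal arrays were higher in both states without overlap, and the difference was -2.39 ± 0.62 (adjusted p = 0.011) in intact and -1.93 ± 0.62 (adjusted p = 0.0366) in castrated mice. The castrated call was lost in 5 of the 12 fits without 1 array. Cox7a2, the common form, had a signal of 9451, 6737 and 8573 in intact luminal cells, 6948, 5323 and 5492 in castrated luminal cells, 9589, 8008 and 10407 in intact basal cells, and 8746, 4638 and 10381 in castrated basal cells. Its groups overlapped in both cell-type comparisons, with -0.18 ± 0.26 (adjusted p = 0.684) in intact and -0.35 ± 0.26 (adjusted p = 0.389) in castrated mice. The summed signal of 15 muscle markers was 834 to 2808 in intact luminal, 429 to 578 in castrated luminal, 2152 to 2934 in intact basal and 1547 to 2275 in castrated basal cells. Of the 9 muscle markers tested, 0 of 9 passed in intact mice and 3 were lower in luminal cells of castrated mice, and their part in the Cox7a1 result was not tested.

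**Figure D5:**
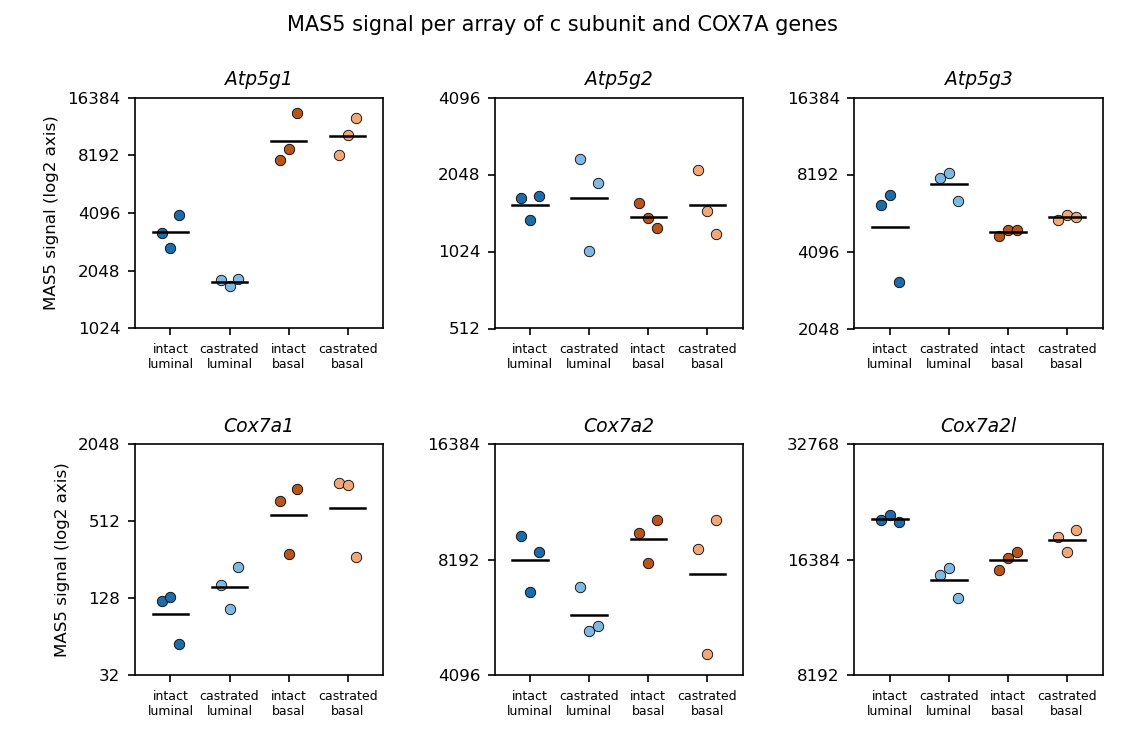
MAS5 signal (log2 axis) per array of the 3 c subunit genes of ATP synthase and of 3 COX7A genes, 3 points per group with bars at the geometric mean. Atp5g1 and Cox7a1 are higher in basal cells, Atp5g2 and Atp5g3 passed in no comparison, and Cox7a2l is lowest in castrated luminal cells.

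The other restricted isoforms were dim, and none of them passed in the 4 comparisons as fitted; Cox6b2 passed between the cell types of intact mice with median centring, with a constant of 64 and in 2 of the fits without 1 array, and Cox6a2 passed after castration in luminal cells with array weights. Cox6a2, the muscle form of Cox6a1, had a signal of 429.9, 317 and 236 in intact luminal cells, 85.3, 102 and 160.5 in castrated luminal cells, 435, 431 and 211 in intact basal cells, and 384, 62.5 and 91.5 in castrated basal cells. Intact luminal arrays lay above castrated luminal arrays, with -1.38 ± 0.63 (adjusted p = 0.232). Cox6b2, the testis form of Cox6b1, had a signal of 207, 3.67 and 11.6 in intact luminal cells, 4.92, 44.2 and 13.5 in castrated luminal cells, 260.1, 285 and 207 in intact basal cells, and 8.63, 44.6 and 176 in castrated basal cells. Its intact basal arrays lay above all other arrays, and luminal minus basal was -2.42 ± 0.87 (adjusted p = 0.0622) in intact mice. Cox4i2, the form induced by low oxygen, had a signal of 66.5, 13.1 and 134 in intact luminal cells, 21.6, 6.62 and 6.92 in castrated luminal cells, 124, 16.3 and 60.8 in intact basal cells, and 75.1, 12.5 and 68.1 in castrated basal cells, spread over a wide range within each group. Cox8a, the common form of the smallest subunit, had a signal of 3549, 3127 and 3314 in intact luminal cells, 2966, 2092 and 2992 in castrated luminal cells, 4214, 4178 and 3528 in intact basal cells, and 2822, 2512 and 1802 in castrated basal cells. Its muscle form Cox8b had 27.4, 20.7 and 71.9 in intact luminal cells, 3.96, 3.89 and 6.73 in castrated luminal cells, 103, 7.16 and 72.1 in intact basal cells, and 4.77, 67.3 and 8.64 in castrated basal cells, and its testis form Cox8c had 8.46, 10.9 and 78.3 in intact luminal cells, 51.5, 64.8 and 50.01 in castrated luminal cells, 64.3, 92 and 4.07 in intact basal cells, and 91.8, 78.5 and 128 in castrated basal cells. For Cox8a the castrated basal arrays lay below the intact basal arrays, with -0.76 ± 0.25 (adjusted p = 0.122). Cox7b2, a testis form that failed the filter, had a signal of 0.468 to 25.9 over the 12 arrays, and Cox7b was not analysed here.

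Ndufa4, named for complex I but known as a subunit of complex IV, had a signal of 8256, 7921 and 7793 in intact luminal cells, 6854, 6549.9 and 6124 in castrated luminal cells, 4666, 3056 and 6161 in intact basal cells, and 1901, 4866 and 7289 in castrated basal cells. Intact luminal arrays lay above intact basal arrays, and the castrated basal arrays spread widely. The difference was 0.84 ± 0.36 (adjusted p = 0.115) in intact and 0.67 ± 0.36 (adjusted p = 0.219) in castrated mice. Its relative Ndufa4l2, induced by low oxygen, had a signal of 89.5, 184 and 176 in intact luminal cells, 43.6, 9.67 and 54 in castrated luminal cells, 123, 217 and 404 in intact basal cells, and 36.1, 61.7 and 112 in castrated basal cells. Castrated arrays lay below intact arrays in both cell types, with -1.75 ± 0.64 (adjusted p = 0.131) in luminal and -1.57 ± 0.64 (adjusted p = 0.207) in basal cells, neither of which passed.

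The 8 Ndufaf assembly factors, which help build complex I but are not part of it, were measured with less precision than the subunits. None passed after castration in either cell type, and the standard error of the median factor was 0.59, against 0.32 for complex I subunits. After castration in basal cells 5 of the 8 had a value above 0, with a median of 0.14. The 36 complex I subunits or isoforms had a median of -0.49 there, with 33 below 0. In luminal cells the medians were -0.23 and -0.17. In luminal against basal cells of castrated mice 7 of 8 had a value above 0, and 1, Ndufaf7, passed with 2.02 ± 0.56 (adjusted p = 0.0169). The remaining values ranged from -0.55 to 1.57 in castrated mice and from -0.30 to 1.82 in intact mice.

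Among genes that work with these complexes, the subunit ND5 of complex I, encoded in mitochondrial DNA, was the only one of its kind measured. Its signal was 32147, 29619 and 42973 in intact luminal, 11429.9, 12131 and 17341 in castrated luminal, 32877, 45036 and 32182 in intact basal, and 18367, 19240.1 and 20312 in castrated basal cells. Castrated arrays lay below intact ones without overlap in both cell types. ND5 fell in both, with a difference of -1.36 ± 0.18 (adjusted p = 0.000213) in luminal and -0.91 ± 0.18 (adjusted p = 0.0152) in basal cells, with no call between the cell types.

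Of 17 genes of electron carriers and coenzyme Q synthesis, castration raised Coq10b in luminal cells, by 0.67 ± 0.19 (adjusted p = 0.0407), and lowered Coq9 in basal cells, where the difference was -1.67 ± 0.41 (adjusted p = 0.0395). Coq9, which takes part in making coenzyme Q, was higher in luminal cells in both states, at 1.96 ± 0.41 (adjusted p = 0.0026) and 2.25 ± 0.41 (adjusted p = 0.000859). Cycs, the mobile carrier cytochrome c, was lower in luminal cells of castrated mice, at -0.76 ± 0.23 (adjusted p = 0.0288). Cyc1, cytochrome c1 of complex III, stood at 0.08 ± 0.28 (adjusted p = 0.908) after castration in luminal and 0.02 ± 0.28 (adjusted p = 0.98) in basal cells. Of 17 citric acid cycle and pyruvate dehydrogenase genes 0 were called after castration in either cell type. Over all genes 5.86% were called after castration in luminal and 2.62% in basal cells. In castrated mice Fh1, Cs and Sucla2 were higher in luminal cells and Ogdh lower, and citrate synthase (Cs) stood at 0.99 ± 0.25 (adjusted p = 0.0107).

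Of 36 other assembly factors for complexes I to V, 9 were higher in luminal cells of intact mice and 6 in castrated mice, with 0 lower in both, where 11.0% and 11.2% of all genes were higher. Their medians of 0.94 and 1.03 lay above that of all members. Coa5, Coa3, Cox17, Pet100 and Sdhaf1 were called in both states, and Coa5 stood at 2.08 ± 0.39 (adjusted p = 0.0012) and 1.65 ± 0.39 (adjusted p = 0.00665). After castration 0 were called in luminal cells and Cox19, a copper-handling factor, rose in basal cells by 2.77 ± 0.57 (adjusted p = 0.0176). Of 76 genes of the mitochondrial ribosome, 9 were higher and 1 lower in luminal cells of intact mice. In castrated mice 11 were higher and 2 lower. The shares called higher were near the 11.0% and 11.2% of all genes. Those called lower were below the 8.45% and 7.22% of all genes. The medians were 0.73 and 0.74, against 0.07 and 0.08 for all genes. Castration changed 0 of the 76 in luminal cells and lowered 1, Mrpl42, in basal cells.

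Among 20 regulators of mitochondrial genes, Hif1a, which responds to low oxygen, rose after castration in both cell types, by 1.07 ± 0.25 (adjusted p = 0.0143) in luminal and 1.08 ± 0.25 (adjusted p = 0.03) in basal cells. Nfe2l2, a regulator of the response to oxidants, rose in luminal cells by 1.02 ± 0.23 (adjusted p = 0.0117). Esrrg, a nuclear receptor that drives oxidative genes in heart and muscle, was higher in luminal cells, at 3.70 ± 0.53 (adjusted p = 0.000103) in intact and 3.23 ± 0.53 (adjusted p = 0.000372) in castrated mice. Hif1a, Nfe2l2 and Myc were lower in luminal than in basal cells in both states. Of the 20 regulators 3 were lower in intact and 5 in castrated mice, where 8.45% and 7.22% of all genes were lower. After castration 2 rose in luminal and 1 in basal cells, where 2.90% and 1.12% of all genes rose. Ppargc1a, a coactivator of mitochondrial genes, stood at 0.07 ± 0.51 (adjusted p = 0.957) after castration in luminal and -0.45 ± 0.51 (adjusted p = 0.701) in basal cells. Esrra stood at -0.84 ± 0.59 (adjusted p = 0.483) and -0.05 ± 0.59 (adjusted p = 0.978), and Tfam, which packages mitochondrial DNA, at 1.07 ± 0.57 (adjusted p = 0.328) and 0.95 ± 0.57 (adjusted p = 0.41). Nrf1, whose motif was counted above, stood at 0.92 ± 0.42 (adjusted p = 0.236) and 1.58 ± 0.42 (adjusted p = 0.0543).

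Of 14 genes of import and the outer membrane, Vdac1, a channel of the outer membrane, fell after castration in luminal cells, with a difference of -0.96 ± 0.20 (adjusted p = 0.00731). Hspa9, the mitochondrial chaperone, and Timm17a, part of the import pore, rose in basal cells, by 1.14 ± 0.19 (adjusted p = 0.00384) and 1.15 ± 0.27 (adjusted p = 0.0343). Over all genes 2.96% fell in luminal and 1.12% rose in basal cells. In the interaction 1 of the 14 passed as lower, where 0.471% of all genes did. In luminal against basal cells 2 were higher in intact mice, against 11.0% of all genes. In castrated mice 1 was higher and 1 lower, against 11.2% and 7.22%. Among 4 genes of the carriers and the ATP synthase inhibitor, none was called after castration. Slc25a5, which exchanges ADP for ATP, was lower in luminal cells in both states, at -0.76 ± 0.21 (adjusted p = 0.0149) and -0.78 ± 0.21 (adjusted p = 0.0131). Its relative Slc25a4 stood at -0.53 ± 0.28 (adjusted p = 0.207) and 0.02 ± 0.28 (adjusted p = 0.978).

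Likeness to the median member over the 12 arrays was ranked for genes outside the list. Provisional symbols, such as those starting with Gm or LOC or ending in Rik, were left out. Of the rest, the most alike were Atox1 (Pearson r = 0.956), Sptssa (0.953), Cyhr1 (0.944), Ttc39a (0.934) and B4galt7 (0.932). Among the members Ndufa12 (0.921) and Ndufv3 (0.912) were closest to that median, and Cox8c (-0.734), Cox7a1 (-0.639) and Atp5g1 (-0.588) ran against it. All these values share the same 12 arrays and their scaling, and describe likeness only.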

How the data were processed

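Expression was measured on 12 Affymetrix arrays of sorted mouse prostate cells, 3 per group. Per the labels' protocols, RNA was isolated with an RNeasy Micro kit, amplified with a NuGEN Pico kit and labelled with biotin. The deposited intensity values are MAS5 signals on a linear scale, made by the authors per the submitters' processing notes, with the version not given in the sources used here. Detection calls were not used here. Of 45101 probe sets, 34945 carried 1 gene symbol in the platform annotation, 932 several and 9160 none here, and 64 were controls; only probe sets with 1 symbol were used.

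Signals were taken as log2(signal + 16), the brightest probe set on average stood for a gene, and genes above the 40th percentile of the array on at least 3 arrays were tested (14645 of 18193). Means of the 4 groups were fitted in limma 3.58.1 (R 4.3.3) with eBayes and an intensity trend, leaving 8 residual degrees of freedom, and p-values were adjusted by Benjamini-Hochberg over all genes tested, two-sided, at 0.05. Figures were drawn with matplotlib 3.10.9, and tables were made with numpy 2.4.6 and pandas 2.3.3 under Python 3.11.15. The fit was tested on simulated data, and the outcome of that test is not given here. Depth does not apply to arrays, and the number of arrays limits the precision.

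The series' design text describes 3 sets of animals with paired intact controls. Deviations of same-numbered arrays from their group means correlated at -0.00723 to 0.0258, and fits with the replicate number as a block are given where they change a call. Full values are given for the members with the lowest adjusted p per complex in each comparison and for tissue-restricted isoforms, and Atp5g2 and Atp5g3 were added as the partners of Atp5g1. Members and gene lists were chosen with earlier results of these data known. Alternatives changed the scaling, the constant, the filter, the variance model, array weights, the probe set rule, the pairing, the samples fitted and the arrays left out.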

Additional observations from a re-analysis of the deposited data

How the results depend on the processing

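The main counts of members called were 4 after castration in luminal cells, 9 in basal cells, 10 between the cell types in intact mice, 21 in castrated mice and 0 in the interaction, and the interaction stayed at 0 under all alternatives run for it. In luminal cells the castration count was 2 with median centring, 0 without the intensity trend, 12 with array weights, 7 when only the 2 groups compared were fitted, 1 without replicate 3 of every group and 1 to 6 with single arrays left out. In basal cells it was 4 with median centring, 5 with a constant of 1, 3 without the trend, 5 with array weights, 3 with only the 2 groups and 4 to 11 with single arrays left out. Between the cell types it was 6 without the trend and 16 without replicate 3 of every group in intact mice, with 10 to 13 over single arrays left out. In castrated mice it was 13 without the trend, 33 with array weights and 11 to 23 over single arrays left out. The replicate block gave 5, 6, 10, 20 and 0 calls in the same order. The median difference of the members turned with median centring from 0.17 to -0.06331 in intact mice and from 0.43 to -0.01301 in castrated mice, and moved to -0.094 for castration in basal cells and to 0.009644 for the interaction, while the median of all genes moved to -0.16, -0.36, 0.13 and -0.18; with single arrays left out it ran from -0.29 to -0.20, -0.46 to -0.26, 0.083 to 0.30, 0.35 to 0.44 and 0.15 to 0.31. Of the 44 called differences 1 turned, that of Atp5a1 in castrated mice, to 0.14 with quantile normalization, and of the 68 members not called there 21 changed sign with median centring. Of the 44 calls, 15 held under every setting run. The cause of these changes was not tested, and dim isoforms such as Cox8b and Cox7b2 are limited by signal near the background.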
